A study of Mus musculus with 12 samples.

Results

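The data show how the change that goes with loss of the B-cell receptor (BCR) differed between lymphoma cultures that were untreated or given CHIR99021, which inhibits the kinase GSK3. The measure was the interaction, that is, the difference BCR-negative minus BCR-positive in CHIR99021 cultures minus the same difference in untreated cultures, taken within each lymphoma. It used all 12 arrays of the series and was computed for all 18820 genes that the platform annotation names by 1 symbol. The cells were primary cultures of B lymphomas from l-MYC;B1-8f mice of the strain C57BL/6J x BALB/c, which carry a MYC transgene and a heavy chain variable region that Cre recombinase can remove. All cultures received TAT-Cre, a cell-permeable form of that enzyme, so BCR-positive cells had met it too. BCR-positive and BCR-negative cells shared a culture for 4 days and were then separated by flow sorting. Lymphomas 2564, 2646 and 2676 each gave 1 array to each of 4 groups, untreated BCR-positive, untreated BCR-negative, CHIR99021-treated BCR-positive and CHIR99021-treated BCR-negative. The labels used here give no dose of CHIR99021. Values are deposited log2 expression values, and a difference of 1 is a change of 2-fold.

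The BCR is a membrane antibody that signals through its partners CD79A and CD79B to kinases of the SYK, BTK and PI3K pathways. Its signal reaches NF-κB, a family of transcription factors held back by IκB proteins, the ERK cascade with its immediate early genes, and the kinase AKT, which restrains FOXO transcription factors and also phosphorylates and inhibits GSK3. GSK3 in turn marks β-catenin, MYC and other proteins for degradation. CHIR99021 thus blocks a kinase that an active BCR would also hold in check.

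The cell type was checked against its markers. Cd79a (10.9 to 11.8) and the B-cell factor gene Pax5 (9.62 to 10.7) were high on all 12 arrays, while Ms4a1, which encodes CD20, read only 3.03 to 3.92. The T-cell marker Cd3e (4.95 to 5.18), the macrophage marker Adgre1 (3.49 to 3.64) and the collagen gene Col3a1 (4.55 to 4.72) were low throughout. Other markers of these lists were not, namely Pecam1 (7.09 to 9.45) and Cdh5 (4.82 to 6.19) of the stromal and endothelial list and Csf1r (4.52 to 8.53) and Itgam (4.68 to 8.03) of the myeloid list. Over 6 measured T-cell markers the mean level was 4.18 to 4.31 on the 12 arrays and over 8 myeloid markers 4.08 to 4.79, and their median interactions were -0.03 and -0.04. Of the 8 myeloid markers 6 had a negative interaction, the lowest being Csf1r (-0.59 ± 0.327), while Lyz2 had 0.51 (unadjusted p = 0.00521 in limma) at a level of 3.52 to 4.28. Of the 8 stromal markers 5 were negative (median -0.05), and Col1a1 had 0.17 (unadjusted p = 0.0388 in limma) at a level of 5.32 to 5.63. The part of these markers in the results was not tested. Array medians averaged 4.82 ± 0.028 (SD, n = 3) in untreated BCR-positive, 4.88 ± 0.054 in untreated BCR-negative, 4.77 ± 0.063 in treated BCR-positive and 4.82 ± 0.041 in treated BCR-negative cells. The part of these shifts in the results was not tested beyond the rescaled fits given in the closing section. In sorted bulk samples, fewer cells of one state and less RNA per cell cannot be told apart.

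The NF-κB inhibitor genes Nfkbie and Tnfaip3 were among the genes with the smallest interaction p, and their promoters are shown because both sit at the centre of the values below. The sequences are RefSeq's for GRCm38.p6, 250 bases before to 50 after the gene start, with Nfkbie on the plus strand at chr17:45555450-45555749 and Tnfaip3 on the minus strand at chr10:19015361-19015660. Capitals mark matches, on either strand, to TGANTCA (AP-1, the dimer of FOS and JUN proteins) and to GGGANTT (part of an NF-κB site), which did not overlap.
Nfkbie: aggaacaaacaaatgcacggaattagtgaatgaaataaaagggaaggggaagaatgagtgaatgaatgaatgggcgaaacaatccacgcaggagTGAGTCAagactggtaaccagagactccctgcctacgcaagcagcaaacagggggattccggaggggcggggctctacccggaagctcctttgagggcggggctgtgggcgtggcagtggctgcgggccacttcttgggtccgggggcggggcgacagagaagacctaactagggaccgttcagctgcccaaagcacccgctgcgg
Tnfaip3: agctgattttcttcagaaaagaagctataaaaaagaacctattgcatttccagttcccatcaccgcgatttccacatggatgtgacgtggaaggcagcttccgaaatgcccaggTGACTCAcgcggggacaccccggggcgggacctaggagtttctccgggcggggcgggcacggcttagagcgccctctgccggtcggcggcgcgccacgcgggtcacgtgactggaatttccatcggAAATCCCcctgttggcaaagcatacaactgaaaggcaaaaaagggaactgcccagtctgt
The AP-1 letters began 156 bases before the start in Nfkbie and 136 bases before it in Tnfaip3. In Tnfaip3 the NF-κB letters began 10 bases before the start and matched on the strand opposite to the one printed. Of 14749 tested genes with a promoter in the table, 6.77% held the AP-1 letters and 16.5% the NF-κB letters in such a window. Of the 10 genes of smallest p with a negative interaction 9 had a promoter there, of which 2 held the AP-1 letters and 1 the NF-κB letters. Of the 10 with a positive interaction 8 had one, of which 0 and 1 held them. TGTTTAC (FOXO) and ATCAAAG (TCF and LEF, the partners of β-catenin) were found in neither set, against 2.98% and 3.13% of all promoters, CACGTG in 2 and 1 (8.43% of all) and TGACGT in 2 and 1 (9.41% of all). A match is a description of letters and not evidence of binding, and the lack of one does not show that a site is absent.

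No gene passed the test of the interaction. In limma with lymphoma as a block, 0 of 18820 genes (0%) had an adjusted p under 0.05, and 990 (5.26%) had an unadjusted p under 0.05, 631 positive (3.35%) and 359 negative (1.91%). The lowest adjusted p in limma was 0.276, for Lima1. By contrast, the same fit called 791 genes (4.2%) for BCR loss in untreated cultures, 359 higher (1.91%) and 432 lower (2.3%), and 3 (0.0159%) for BCR loss with CHIR99021. Those counts stand side by side but are not a test of the difference between them, which for single genes is the interaction itself. Its median SE was 0.102, against 0.0724 for BCR loss in untreated cultures. Over all genes the median interaction was 0.01, 11 genes exceeded 1 in size, and 5333 genes (28.3%) had the same sign in all 3 lymphomas, 2254 of them negative. Across the 18820 genes, which are not independent replicates, the difference of differences correlated between lymphomas at r = 0.13 (2564 and 2646), -0.03 (2564 and 2676) and 0.23 (2646 and 2676). The same correlations for BCR loss in untreated cultures were 0.36, 0.37 and 0.59. The values below therefore describe the genes with the smallest p and the chosen gene groups, and none of the single-gene differences is called.

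Among negative interactions, Lima1, Nfkbie, Tnfaip3 and Cacna1e had the smallest p. In each of them the untreated BCR-negative arrays were the highest of their lymphoma, and the CHIR99021-treated BCR-negative arrays lay closer to the BCR-positive ones. Lima1, which encodes an actin-binding LIM protein, read 5.64, 5.16 and 4.95 in untreated BCR-positive cells of lymphomas 2564, 2646 and 2676, the order used throughout, and 6.87, 6.82 and 6.45 in untreated BCR-negative cells. With CHIR99021 it read 5.21, 5.07 and 5.04 in BCR-positive and 5.67, 5.40 and 5.36 in BCR-negative cells. The 3 untreated BCR-negative arrays lay above the other 9, which reached 5.67. Its BCR-loss change was 1.46 without and 0.37 with CHIR99021, an interaction of -1.10 ± 0.137 (SE, n = 3 lymphomas, with a 95% interval for this gene alone from -1.40 to -0.79, limma adjusted p = 0.276).

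Nfkbie encodes IκBε, an inhibitor of NF-κB that NF-κB itself induces. It read 6.11, 6.63 and 6.24 in untreated BCR-positive, 7.24, 8.28 and 7.94 in untreated BCR-negative, 5.57, 6.52 and 5.93 in treated BCR-positive and 6.26, 6.88 and 6.59 in treated BCR-negative cells. The lowest untreated BCR-negative array, 7.24, was above all 9 others. The interaction was -0.93 ± 0.150, from a change of 1.50 without to 0.57 with CHIR99021 (limma, adjusted p = 0.83). Tnfaip3, whose product is a ubiquitin-editing enzyme that shuts NF-κB signalling off, read 4.76, 6.23 and 4.85, then 6.38, 8.68 and 7.03, then 4.56, 6.01 and 4.75, then 4.90, 6.36 and 5.65 in the same order of groups. Its levels differed between lymphomas, and the 6.38 of lymphoma 2564 exceeded the highest of the other 9 arrays, 6.36, only narrowly. The change was 4.25-fold without and 1.45-fold with CHIR99021, an interaction of -1.55 ± 0.255 (limma, adjusted p = 0.83). Cacna1e, a subunit of a voltage-gated calcium channel, read 5.01, 4.85 and 5.28, then 7.48, 7.26 and 6.85, then 4.87, 4.56 and 4.99, then 5.39, 5.63 and 5.84. The untreated BCR-negative arrays did not overlap with the rest. Its interaction of -1.34 ± 0.254 (limma, adjusted p = 0.928) ranged from -1.95 in lymphoma 2564 to -0.72 in 2676, and it passed when the untreated BCR-negative array of 2676 was left out (limma, adjusted p = 0.0271).

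The other negative interactions of smallest p were smaller. S1pr4, a sphingosine-1-phosphate receptor of lymphocytes, had -0.70 ± 0.139, with -0.23 in lymphoma 2564 against -1.02 in 2646. Kyat1, a kynurenine aminotransferase, had -0.47 ± 0.0900, Tmc8 -0.48 ± 0.0975, the coronin gene Coro7 -0.46 ± 0.0922 and Grina, a membrane protein of the Golgi and endoplasmic reticulum, -0.50 ± 0.105. Kyat1 differed more between lymphomas than between groups, from 8.82 to 9.29 in 2564 and from 7.13 to 7.73 in 2676, so its groups overlapped while all 3 differences of differences were negative. AY036118 had another shape. It read 8.30, 8.03 and 8.34, then 8.36, 8.46 and 8.37, then 8.33, 8.49 and 8.43, then 8.05, 7.70 and 7.95, so that the treated BCR-negative arrays were the lowest of their lymphomas, and its BCR-loss change was 0.17 without and -0.51 with CHIR99021 (interaction -0.69 ± 0.142). For each of these 6 genes the limma adjusted p was 0.928. Of the 10 negative genes, 9 were called for BCR loss in untreated cultures (4.2% of all genes were) and 0 with CHIR99021 (0.0159%). For CHIR99021, 9 were called in BCR-negative cells (3.68% of all genes) and 0 in BCR-positive cells (0.0744%). These comparisons share arrays with the interaction, so the counts describe the shape of the selected genes only.

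**Figure D1:**
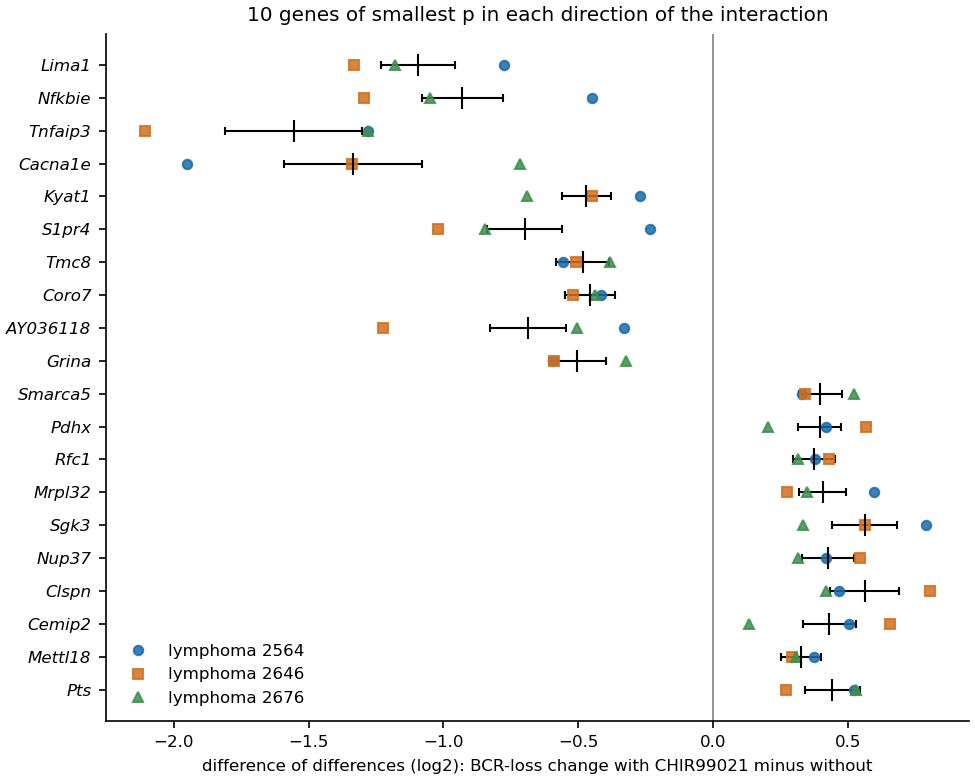
The horizontal axis gives the difference of differences on the log2 scale for the 10 genes of smallest p in each direction, with a point per lymphoma, and a bar at the mean with its limma SE. All points lie on the side of their gene's mean, from -2.10 (Tnfaip3, lymphoma 2646) to 0.80 (Clspn, lymphoma 2646), which follows in part from choosing genes of small p.

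Positive interactions of smallest p were genes that were lower in BCR-negative cells without the inhibitor and close to the BCR-positive level with it. Smarca5, the motor subunit of ISWI chromatin remodelling complexes, read 9.36, 9.28 and 9.70 in untreated BCR-positive, 9.05, 8.98 and 9.38 in untreated BCR-negative, 9.34, 9.29 and 9.50 in treated BCR-positive and 9.36, 9.34 and 9.70 in treated BCR-negative cells. The untreated BCR-negative array was the lowest of each lymphoma, although the groups overlapped across lymphomas. Its interaction was 0.40 ± 0.0793 (limma, adjusted p = 0.928). Rfc1, the large subunit of the clamp loader in DNA replication, read 9.17, 9.15 and 9.03, then 8.91, 8.75 and 8.73, then 8.99, 9.04 and 8.98, then 9.09, 9.07 and 8.99, and here the 3 untreated BCR-negative arrays lay below all others. The interaction was 0.37 ± 0.0764, with 0.38, 0.43 and 0.31 in the 3 lymphomas (limma, adjusted p = 0.928).

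Clspn, which encodes the replication checkpoint adaptor claspin, read 8.06, 7.76 and 7.89, then 7.74, 7.03 and 7.64, then 7.73, 7.42 and 7.75, then 7.87, 7.50 and 7.92. In every lymphoma it was lower in BCR-negative than BCR-positive cells without and higher with CHIR99021, a change of -0.43 against 0.13. Sgk3, a kinase of the PI3K pathway related to AKT, read 7.33, 7.94 and 7.81, then 6.55, 7.04 and 7.10, then 7.08, 7.95 and 8.01, then 7.09, 7.62 and 7.63. Here the BCR-loss change stayed negative in 2646 and 2676 with CHIR99021 and was near 0 in 2564. Both genes had an interaction of 0.56, with SE of 0.127 and 0.122. Pdhx (0.39 ± 0.0792), a component of the pyruvate dehydrogenase complex, the mitochondrial ribosomal protein gene Mrpl32 (0.41 ± 0.0877), the nucleoporin gene Nup37 (0.42 ± 0.0959), the hyaluronidase gene Cemip2 (0.43 ± 0.0985), the methyltransferase gene Mettl18 (0.32 ± 0.0748) and Pts (0.44 ± 0.102), an enzyme of tetrahydrobiopterin synthesis, completed the set (limma, adjusted p = 0.928 for each). All 10 were called lower for BCR loss in untreated cultures (2.3% of all genes were) and 0 were called with CHIR99021 (0.0159%). For CHIR99021, 8 were called in BCR-negative cells (3.68% of all genes) and 0 in BCR-positive cells (0.0744%). These counts too describe the shape of the selected genes only, as the comparisons share arrays with the interaction.

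**Figure D2:**
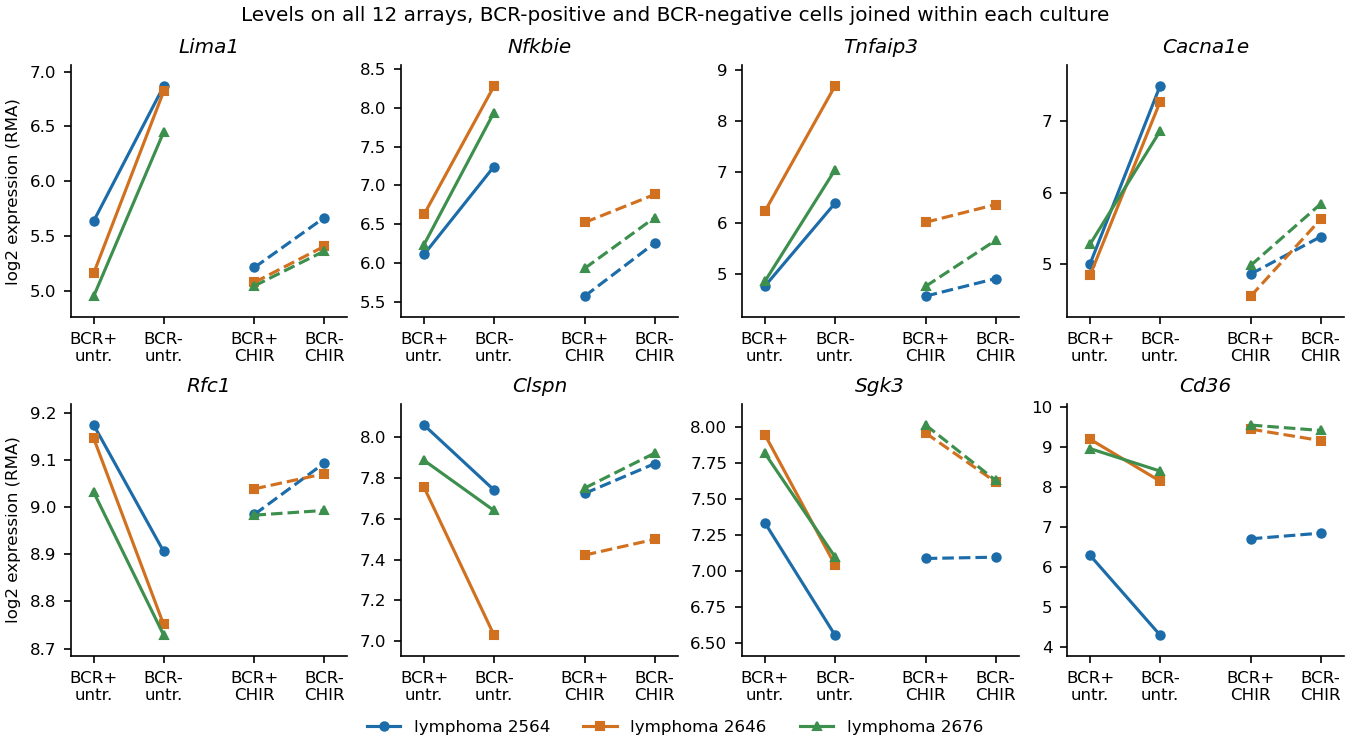
The vertical axes give log2 expression on each of the 12 arrays for 8 genes, with lines joining the pair of sorted populations from each culture (solid, untreated, and dashed, CHIR99021). Without inhibitor the lines rise by 1.13 to 2.47 in Nfkbie, Lima1, Tnfaip3 and Cacna1e and fall in Rfc1, Clspn, Sgk3 and Cd36, and with CHIR99021 they are flatter in all 8 genes in the mean over lymphomas.

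Gene groups were described by counts and medians, beside the median of 0.01 over all genes, of which 46.0% had a negative interaction. Over 25 lists with 501 measured genes, 62 genes (12.4%) had an unadjusted p under 0.05, against 5.26% of all genes, and 0 passed over all genes. The lists were chosen with earlier results of these data known, so a share above that of all genes was partly built in. NF-κB genes had 20 measured members, of which 17 were negative. Of these, 6 were negative at an unadjusted p under 0.05 and 0 positive, namely the inhibitors Nfkbie and Tnfaip3, the subunits Nfkb2 (-0.88 ± 0.196), Relb (-0.67 ± 0.165) and Rel (-0.28 ± 0.109), and Nfkbiz (-0.41 ± 0.150), which encodes a nuclear IκB protein. For Nfkb2 and Relb, partners in the alternative NF-κB pathway, the BCR-loss change was 0.91 and 0.65 without and 0.03 and -0.03 with CHIR99021. Nfkbia, the inhibitor most studied in this family, had 1.12 and 0.63 (interaction -0.48 ± 0.253). The cytokine genes Tnf (0.23 ± 0.312) and Ccl3 (0.25 ± 0.234) were on the positive side. The median of the list was -0.19, with -0.13, -0.34 and -0.33 in the 3 lymphomas.

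Immediate early genes had the lowest median of the 25 lists, -0.50, with 28 of 30 members negative. Their median BCR-loss change was 0.77 without and 0.18 with CHIR99021. By lymphoma the median difference of differences was -0.52, -0.73 and -0.13, so lymphoma 2676 contributed least, and without the untreated BCR-negative array of 2646 the list's median was -0.28. Of 8 members at an unadjusted p under 0.05, all were negative, while 1.91% of all genes were negative at that p. Ier3 (-0.59 ± 0.147) had the smallest p, and the activation marker Cd69 the largest size (-1.67 ± 0.563). Cd69 read 4.65, 6.37 and 6.41 in untreated BCR-positive and 7.36, 8.44 and 7.04 in untreated BCR-negative cells, against 4.41, 6.15 and 6.30 and then 5.41, 5.65 and 6.18 with CHIR99021. Among treated cultures it was higher in BCR-negative cells of 2564 only. The RNA-decay factor gene Zfp36 (-0.71 ± 0.247), the kinase gene Pim1 (-0.60 ± 0.227), Junb (-0.81 ± 0.318), Jund (-0.54 ± 0.239), Ier2 (-0.83 ± 0.352) and Maff (-0.38 ± 0.145) were the others. Atf3, a stress-induced transcription factor, had -1.52 ± 0.777 and Egr1 -0.64 ± 0.294, while Fos (-0.36 ± 0.445), Rgs1 (-0.22 ± 0.604) and Nr4a1 (-0.06 ± 0.200) lay within 1 SE of 0. Sprouty and SPRED proteins and some dual-specificity phosphatases limit ERK signalling, while other such phosphatases, the product of Dusp10 among them, act mainly on related kinases. The ERK feedback list held genes of these families together with Etv5 and Phlda1, which ERK signalling induces. Of its 12 members 8 were negative, Dusp2 (-0.59 ± 0.216) and Dusp10 (-0.37 ± 0.139) at an unadjusted p under 0.05. Spry1 (0.03 ± 0.129) and Spry2 (0.00 ± 0.128) showed no shift beyond their SE.

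FOXO targets, 25 measured, had a median of -0.18 and 19 negative members. Their median BCR-loss change was 0.52 without and 0.36 with CHIR99021. Pik3ip1, an inhibitor of PI3K, read 6.29, 6.07 and 6.66, then 7.40, 7.44 and 8.10, then 5.58, 5.91 and 6.14, then 6.00, 6.35 and 7.08, so BCR-negative cells were higher than BCR-positive cells in all 6 cultures, by less with the inhibitor (interaction -0.70 ± 0.181). The muscle-atrophy ubiquitin ligase gene Fbxo32 (-0.32 ± 0.118) and Txnip (-0.38 ± 0.165), which limits glucose uptake, had an unadjusted p under 0.05. The recombinase gene Rag2 (1.20 without, 1.42 with), Ccng2 (0.66 and 0.72) and Sesn3 (0.26 and 0.43) had as large a BCR-loss estimate with CHIR99021 as without. Of 22 PI3K and mTOR genes 15 were negative (median -0.05), with the regulatory subunit Pik3r5 at -0.37 ± 0.101 and the mTOR activator Rheb at 0.25 ± 0.0885. In the BCL2 family of death and survival genes (13 measured, median -0.01), the death genes Bmf (-0.91 ± 0.305) and Bik (-0.25 ± 0.0812) were negative and the survival gene Bcl2l2 (0.27 ± 0.116) positive at an unadjusted p under 0.05. Bcl2 (0.01 ± 0.194), Mcl1 (-0.08 ± 0.0965) and Bcl2l11 (0.02 ± 0.162) were near 0. Of 17 p53 targets, Eda2r alone reached an unadjusted p under 0.05 (-0.21 ± 0.0905), at a low level of 3.63 to 4.01.

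DNA replication genes had the highest median, 0.33, and all 29 measured members were positive, 25 of them in every lymphoma. Of all 18820 genes, 3079 were positive in every lymphoma. The median BCR-loss change was -0.33 without and -0.02 with CHIR99021, and the median difference of differences was 0.20, 0.52 and 0.17 by lymphoma. Without lymphoma 2646 the list's median was 0.17. In all, 16 of the 29 were positive at an unadjusted p under 0.05, against 3.35% of all genes. Among them were Clspn, the primase gene Prim1 (0.57 ± 0.156) and the GINS helicase subunits Gins1 (0.55 ± 0.170) and Gins3 (0.46 ± 0.133). The clamp-loader gene Rfc3 (0.45 ± 0.135), the flap nuclease gene Fen1 (0.39 ± 0.135) and the origin genes Orc1 (0.49 ± 0.191) and Orc6 (0.28 ± 0.0940) were others. So was Ccne1 (0.45 ± 0.192), the cyclin of S-phase entry. Ccne1 was the member whose BCR-loss change stayed largest with CHIR99021, at -0.37 against -0.81 without. Pcna, the sliding clamp, had 0.07 ± 0.0977 and E2f2 0.02 ± 0.121. For BCR loss in untreated cultures 10 of the 29 were called lower, against 2.3% of all genes, and with CHIR99021 0, against 0.0159% called in either direction.

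**Figure D3:**
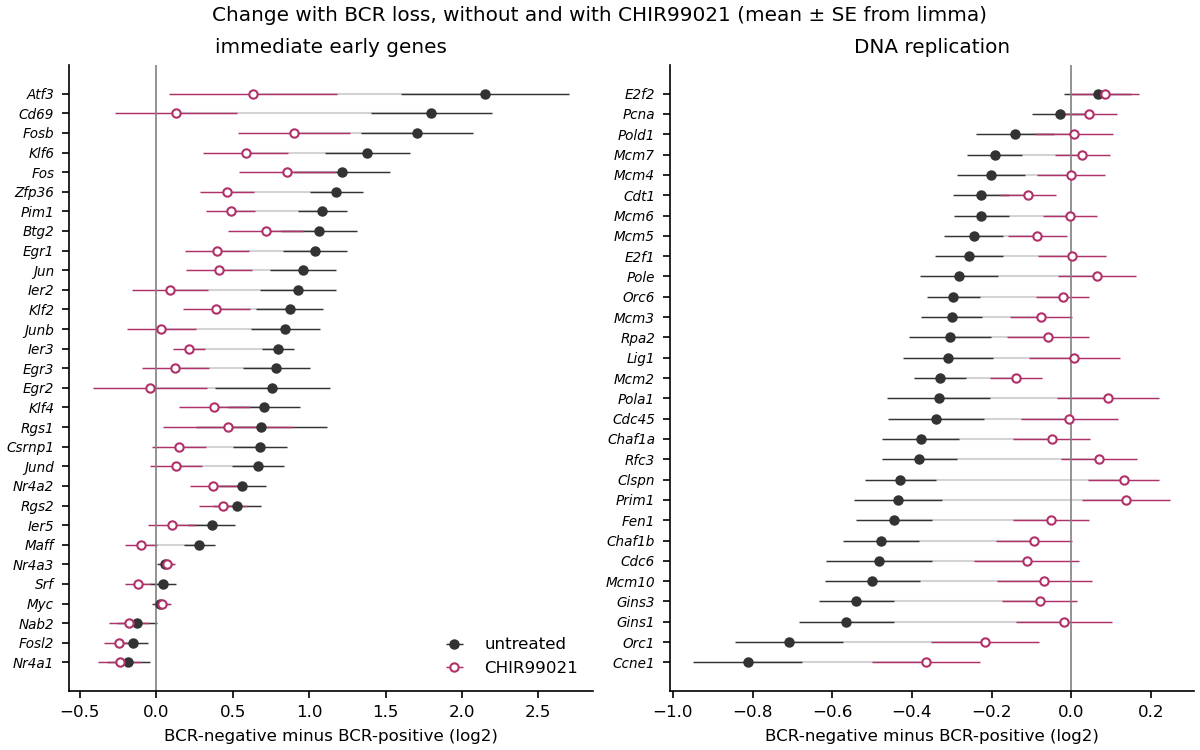
The horizontal axes give BCR-negative minus BCR-positive on the log2 scale for each immediate early gene (left) and DNA replication gene (right), as limma means ± SE over 3 lymphomas, filled without and open with CHIR99021. Among DNA replication genes the open symbols lie near 0 for most members (median -0.02). Among immediate early genes the open symbol is the smaller in size for 24 of 30 members (median 0.18 against 0.77). Of all genes, 59.8% had the smaller estimate with CHIR99021.

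Mitosis genes followed in order, with a median of 0.21 and 20 of 21 members positive, Cdca8 (0.28 ± 0.111) and the spindle checkpoint gene Mad2l1 (0.30 ± 0.126) at an unadjusted p under 0.05. Nucleotide and one-carbon synthesis had a median of 0.15 and 18 of 20 positive, with the ribonucleotide reductase gene Rrm2 (0.30 ± 0.106) and the GMP synthetase gene Gmps (0.24 ± 0.0973). In nucleolar MYC targets 31 of 34 were positive at a median of 0.08, and Dkc1, the pseudouridine synthase of ribosomal RNA, had 0.23 ± 0.0895. There the median BCR-loss change was -0.25 without and -0.16 with CHIR99021. Respiratory chain genes also had a median of 0.08 (24 of 27 positive), with 0.13, 0.14 and -0.03 by lymphoma, and the complex I genes Ndufa4 (0.33 ± 0.131) and Ndufs1 (0.19 ± 0.0856) at an unadjusted p under 0.05. Cholesterol and fatty acid synthesis held members of opposite sign. The isomerase gene Idi1 had 0.30 ± 0.107, and Insig1, which holds back sterol synthesis, -0.29 ± 0.107. The list's median was 0.06, with 0.07, 0.20 and -0.10 by lymphoma, and -0.01 without lymphoma 2646.

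**Figure D4:**
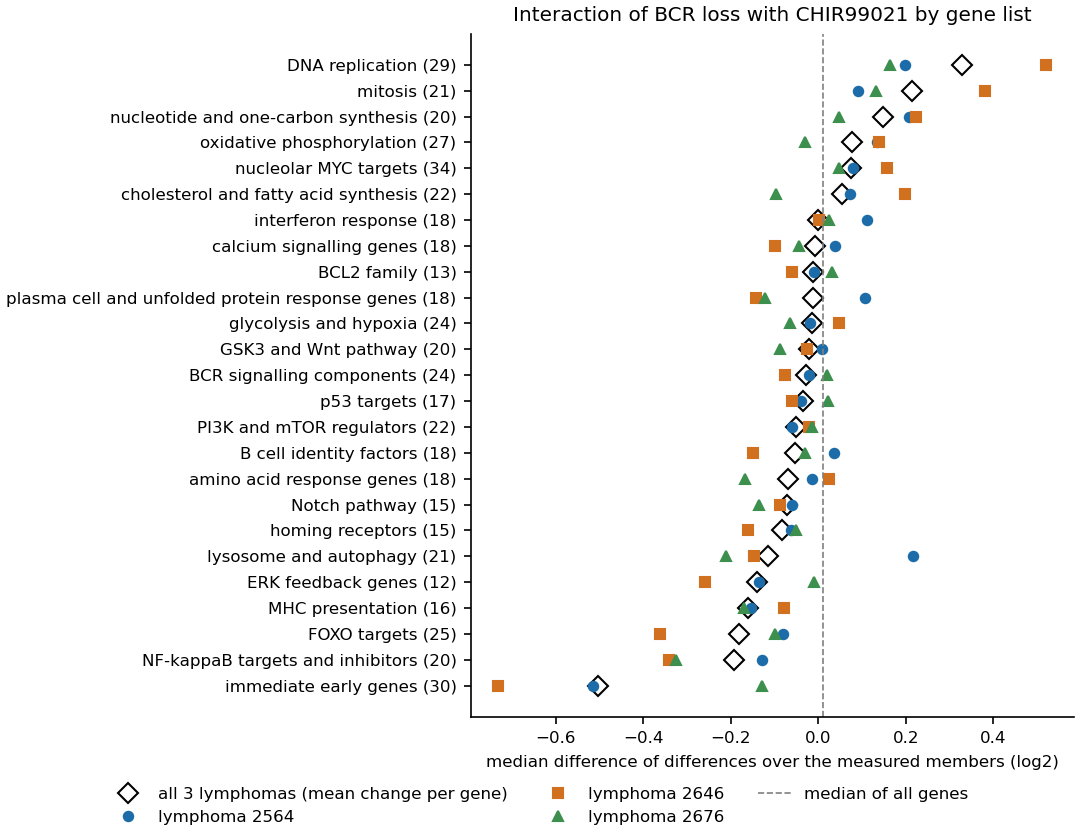
The horizontal axis gives the median difference of differences on the log2 scale over the measured members of each of 25 gene lists, with member numbers in brackets, a symbol per lymphoma, and a diamond for the mean change over lymphomas. DNA replication (0.33) and mitosis genes (0.21) stand at one end and immediate early genes (-0.50) at the other, while most lists lie close to the dashed line at the median of all genes (0.01).

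The genes of the drug target and its best known pathway lay near 0. Gsk3b had an interaction of 0.05 ± 0.0746, with a 95% interval from -0.12 to 0.21, and Ctnnb1, which encodes β-catenin, 0.07 ± 0.0760 (-0.10 to 0.24). Of known β-catenin target genes, Axin2 had -0.01 ± 0.147 (-0.33 to 0.32) and Lef1, at a low level of 4.26 to 4.71, 0.00 ± 0.104 (-0.23 to 0.24). Both signs turned when single lymphomas or arrays were left out. These intervals leave room for moderate differences. Of 20 GSK3 and Wnt genes 0 had an unadjusted p under 0.05, and the largest estimate was that of the β-catenin partner Tcf7l2 (-0.43 ± 0.192). Gsk3a was not among the genes tested. BCR signalling components (24 measured, median -0.03) also had 0, with the adaptor Blnk at -0.27 ± 0.136 and Pik3cd at -0.31 ± 0.169. The mouse Myc gene had 0.01 ± 0.0779 at levels from 3.98 to 4.47. Among 16 antigen presentation genes 14 were negative (median -0.16, but 0.00088 without the treated BCR-positive array of 2676), with the peptide transporter Tap2 (-0.27 ± 0.0772), the class I gene H2-K1 (-0.51 ± 0.148) and Tapbp (-0.32 ± 0.140) at an unadjusted p under 0.05. Class II genes had wide errors, such as H2-Aa at -0.48 ± 1.02. Of 15 Notch pathway genes 11 were negative and 4 positive (median -0.07), with the coactivator Maml2 at -0.77 ± 0.256 and the receptor Notch1 at -0.36 ± 0.143. Prdm1, the plasma cell regulator, had -1.11 ± 0.414 and Herpud1 -0.35 ± 0.121, while their list's median was -0.01. The lysosome list (median -0.11) had 0.22 in lymphoma 2564 against -0.15 and -0.21 in the others. Amino acid response, B-cell identity, homing, calcium, glycolysis and interferon genes had medians from -0.08 to -0.00.

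The deleted gene segment and the receptor genes give the state of the sorted cells. Ighv1-72, the variable segment of the B1-8 heavy chain, read 10.3, 10.5 and 10.4 in untreated BCR-positive and 8.60, 9.12 and 7.10 in untreated BCR-negative cells. With CHIR99021 it read 9.996, 10.6 and 10.2 and then 7.26, 8.17 and 6.56. As a share of the signal in BCR-positive cells, 31.8%, 38.2% and 10.3% were left in BCR-negative cells without and 14.97%, 18.2% and 7.92% with CHIR99021, so a smaller share was left with CHIR99021 in each lymphoma. The interaction of -0.84 ± 0.468 did not pass (limma, adjusted p = 0.938). Ighm had -0.93 ± 0.695, of which lymphoma 2646 gave -2.69 and the others -0.00 and -0.09, and a second probe set of the gene had 0.04. In 2646 it read 7.60 in untreated BCR-positive, 7.31 in untreated BCR-negative, 8.14 in treated BCR-positive and 5.16 in treated BCR-negative cells. In 2564 and 2676 it read only 4.14 to 4.53, BCR-positive cells included. Those levels lie under the lowest array median, 4.71, so the values near 0 there say little. Igkc had 0.40 ± 0.378. The fatty acid transporter gene Cd36 had the largest positive estimate of all genes, 1.11 ± 0.372 (limma, adjusted p = 0.928). It read 6.29, 9.19 and 8.96, then 4.30, 8.15 and 8.40, then 6.70, 9.45 and 9.55, then 6.84, 9.16 and 9.41, and lymphoma 2564 gave 2.13 against 0.76 and 0.43 in the others.

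Whether genes that move with BCR loss moved less with CHIR99021 was also read in lymphomas that had no part in choosing the genes. In 2 lymphomas the genes were ranked by the moderated t of BCR loss in untreated cultures, and the 100 highest and 100 lowest were read in the remaining one, as a description without a test, since genes are not replicates. In lymphoma 2564 the 100 highest had a median BCR-loss change of 0.46 without and 0.20 with CHIR99021, and the 100 lowest -0.20 and 0.01. In 2646 the medians were 0.89 and 0.33 for the highest and -0.42 and -0.15 for the lowest. Lymphoma 2676 differed, with 0.56 and 0.40 for the highest and -0.34 and -0.32 for the lowest, of which 47 of 100 had a smaller change with CHIR99021, against 82 in 2564 and 76 in 2646. Over all genes 59.8% had a smaller BCR-loss estimate with CHIR99021, from means over the 3 lymphomas. The share of all genes within each lymphoma was not computed, so these counts do not set the ranked genes apart from all genes. Over all genes the SD of the BCR-loss change was 0.218, 0.290 and 0.239 in untreated cultures of the 3 lymphomas. With CHIR99021 it was 0.140, 0.173 and 0.238 in the same order. Because a ranking on untreated cultures favours genes that are large there, the ranking was also made on CHIR99021 cultures, an alternative added after the data were seen. It gave 0.32 and 0.20 for the highest in 2564, 0.58 and 0.30 in 2646, and 0.26 and 0.28 in 2676. For the lowest it gave -0.17 and -0.02, -0.25 and -0.13, and -0.14 and -0.18. With either ranking both medians were smaller in size with CHIR99021 in 2564 and 2646, while in 2676 it did not hold with the ranking on CHIR99021 cultures. With the ranking on untreated cultures the lowest genes of 2676 had no settled direction, since after cyclic loess their medians were -0.32 without and -0.37 with CHIR99021, and 41 of 100 had a smaller change. The number of genes with a BCR-loss change over 1 in size was 82, 234 and 110 in untreated and 12, 26 and 88 in treated cultures of the 3 lymphomas.

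**Figure D5:**
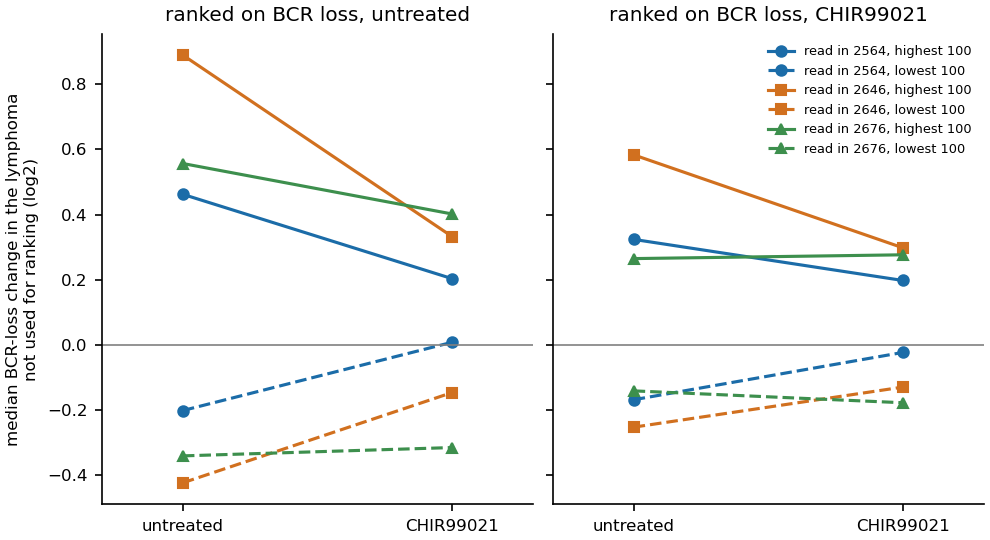
The vertical axis gives the median log2 change with BCR loss, in the lymphoma not used for ranking, of the 100 highest (solid) and 100 lowest (dashed) genes of the other lymphomas, without and with CHIR99021. Lines of 2564 and 2646 converge towards 0 (0.89 to 0.33 in 2646, left), and those of 2676 are flatter (-0.34 to -0.32, left).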

How the data were processed

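Per the submitters' processing notes, the deposited log2 expression values per probe set were made by the authors with RMA in Affymetrix Power Tools, on Affymetrix arrays of the Mouse Gene 1.1 ST type. The labels name no version. The table held 35556 probe sets, of which 21218 had 1 gene symbol, 1881 several and 12457 none listed. The probe set with the highest mean stood for a gene, which left 18820 genes (21185 probe sets matched RefSeq, GRCm38.p6, by Entrez identifier). With arrays, their number limits the precision. limma 3.58.1 in R 4.3.3 fitted group and lymphoma over 12 arrays (6 residual degrees of freedom), with Benjamini-Hochberg adjustment over all genes, and was tested on simulated data. The labels give each lymphoma in all 4 groups, and arrays of a lymphoma deviated together (r of 0.81 to 0.91 over 18 pairs). P-values rest on how differences between groups varied among these 3 lymphomas, pooled over the 4 groups. limma also draws each gene's spread towards that of all genes, so the SE is not that of the 3 differences of differences alone. Members, lists and rules were chosen with earlier results of these data known. Named genes are the 10 of smallest p per direction (as none passed), the 2 of smallest p per list and 14 genes looked at in any case. Other list members were chosen after their values were seen. Settings tried instead are in the closing section.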

Additional observations from a re-analysis of the deposited data

How the results depend on the processing

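The count of 0 called genes held with no replicate block, with lymphoma as a random block, with a replicate block per culture, with 1 value per lymphoma, without dim genes, with probe sets averaged, after either rescaling, with trend and robust, and over all probe sets. Leaving out a lymphoma or an array gave 0 to 2 genes. The 2 were Cacna1e and Nyx (chosen after its values were seen), both lower, without the untreated BCR-negative array of 2676. Genes at an unadjusted p under 0.05 numbered 990, but 269 with no replicate block, 1618 over all probe sets, 599 without lymphoma 2646 and 1597 without the untreated BCR-negative array of 2564. Of 76 genes, 72 kept their sign in all 25 settings. This was largely built in, because most of these genes were chosen for a small p and had the same sign in every lymphoma. For such genes, leaving out a lymphoma could not turn the sign, so the count does not measure how robust they are. Without single lymphomas or arrays Gsk3b ranged from -0.0030 to 0.083, Axin2 from -0.20 to 0.18, Lef1 from -0.12 to 0.071 and Myc from -0.045 to 0.088, and with array medians subtracted Axin2 was 0.0085. The cause was not tested. The lowest adjusted p of Lima1 in any setting was 0.0526, without the untreated BCR-positive array of 2564. Without single lymphomas or arrays, list medians ranged from -0.65 to -0.28 for immediate early, -0.25 to -0.14 for NF-κB, -0.29 to -0.07 for FOXO, -0.24 to -0.04 for ERK feedback, -0.20 to -0.03 for lysosome, 0.17 to 0.45 for DNA replication, 0.10 to 0.29 for mitosis, 0.08 to 0.23 for nucleotide synthesis, 0.03 to 0.15 for nucleolar and 0.04 to 0.15 for respiratory chain genes. For antigen presentation (-0.28 to 0.00088) and cholesterol synthesis genes (-0.01 to 0.16) the sign turned. It also turned for the BCL2 family, BCR signalling, GSK3 and Wnt, and PI3K and mTOR lists. The same held for the calcium, plasma cell, B-cell identity, glycolysis and interferon lists. The immediate early, ERK feedback and mitosis medians were smallest in size without the untreated BCR-negative array of 2646, and the FOXO and DNA replication medians without lymphoma 2646.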
